A study of Mus musculus with 6 samples.

Results

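Serpins are a large family of proteins that mostly inhibit proteases, and the genes described here are those whose symbol reads *Serpin* followed by a clade letter from a to i and a number. Of 69 such symbols in the RefSeq annotation of the mouse, 48 had a probe set naming that gene alone, out of 19938 genes measured this way, and these 48 are described. Each had 1 such probe set. Clade a held 15 of them, clade b 24, and clades c to i the other 9. A further 5 genes (*Serpina1a*, *Serpina1b*, *Serpina1e*, *Serpinb9f* and *Serpinb9g*) appeared only on probe sets naming several genes, and 16 symbols, among them *Serpine2* and *Serpinb3b*, were not analysed here.

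A serpin exposes a flexible loop that a protease cleaves as if it were a substrate, after which the serpin changes shape and traps the enzyme in a covalent complex. Clade a members are secreted, many of them by liver into plasma, while clade b members act mostly inside cells and are abundant in stratified squamous epithelia such as that lining the mouse esophagus. There they restrain lysosomal cathepsins, granule proteases and trypsin-like enzymes that take part in the shedding and death of keratinocytes. A few serpins, such as the collagen chaperone *Serpinh1*, inhibit no protease.

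The samples were esophageal epithelia of 6 mice aged 3 months on a mixed genetic background, 1 array per animal. All 6 carried *Klf4*, a transcription factor gene of differentiating squamous epithelium, flanked by loxP sites on both copies. The 3 animals labelled mutant also carried ED-L2-Cre, in which a viral promoter drives Cre recombinase in squamous epithelia, and the 3 labelled control were littermates of matching sex without Cre. Replicate 1 of each genotype was male and replicates 2 and 3 were female. The values are log2 signals, and control and mutant mean the arrays so labelled.

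*Klf4* itself read higher in every mutant than in any control, with means of 10.35 ± 0.13 and 9.99 ± 0.21 (SD, n = 3 each) and a limma adjusted p of 0.314. The sources used here do not say whether its probes lie in the removed part, so every direction rests on the labels. The 10 squamous epithelium markers, which include *Krt13*, *Krt5* and *Trp63*, were all above the dim limit, which is the 40th percentile of mean signal over all genes (4.72). Their mean per array lay between 11.77 and 12.02. All 20 measured fibroblast and lamina propria markers had lower means on the arrays labelled mutant (median difference -0.80, 3 past the threshold), and the mean of 8 skeletal muscle genes ranged from 6.16 to 10.67 between arrays. Correlations between arrays across genes lay between 0.974 and 0.992.

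Of the 48 serpins, 2 fell and none rose at an adjusted p of 0.05 (limma, Benjamini-Hochberg adjustment over all genes). Among all genes 1.04% passed, 0.672% in the lower and 0.366% in the higher direction, and among those at or above the dim limit, where both serpins lie, 1.69%. Both serpins that fell, *Serpina12* and *Serpina9*, belong to clade a and stand next to each other in their cluster on chromosome 12. At an unadjusted p under 0.05 there were 13 serpins, or 27.1%, against 12.4% of all genes. At or above the dim limit there were 12 (60%), against 17.7% of all genes there, and under it 1. The 3 mutant and 3 control values did not overlap for 16 serpins (33.3%), 7 lower and 9 higher, where 18.1% of all genes did not overlap, 8% lower and 10.1% higher. Of the 20 serpins at or above the dim limit 13 did not overlap (65%, against 22.9% of all genes there). Of the 28 under it 3 did not (10.7%, against 18.1% of all genes, bright and dim together). The mean was higher in mutants for 27 serpins and lower for 21, where 55.5% of all genes were higher, and the median difference was 0.049 on the log2 scale, against 0.022 over all genes. The count of 2 became 0 without control 2, control 3 or mutant 3 and in the 4 females alone, and 1 without control 1 (*Serpina12*) or mutant 1 (*Serpinb8*). In bulk tissue, fewer cells of a type and less RNA per cell cannot be told apart.

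**Figure D1:**
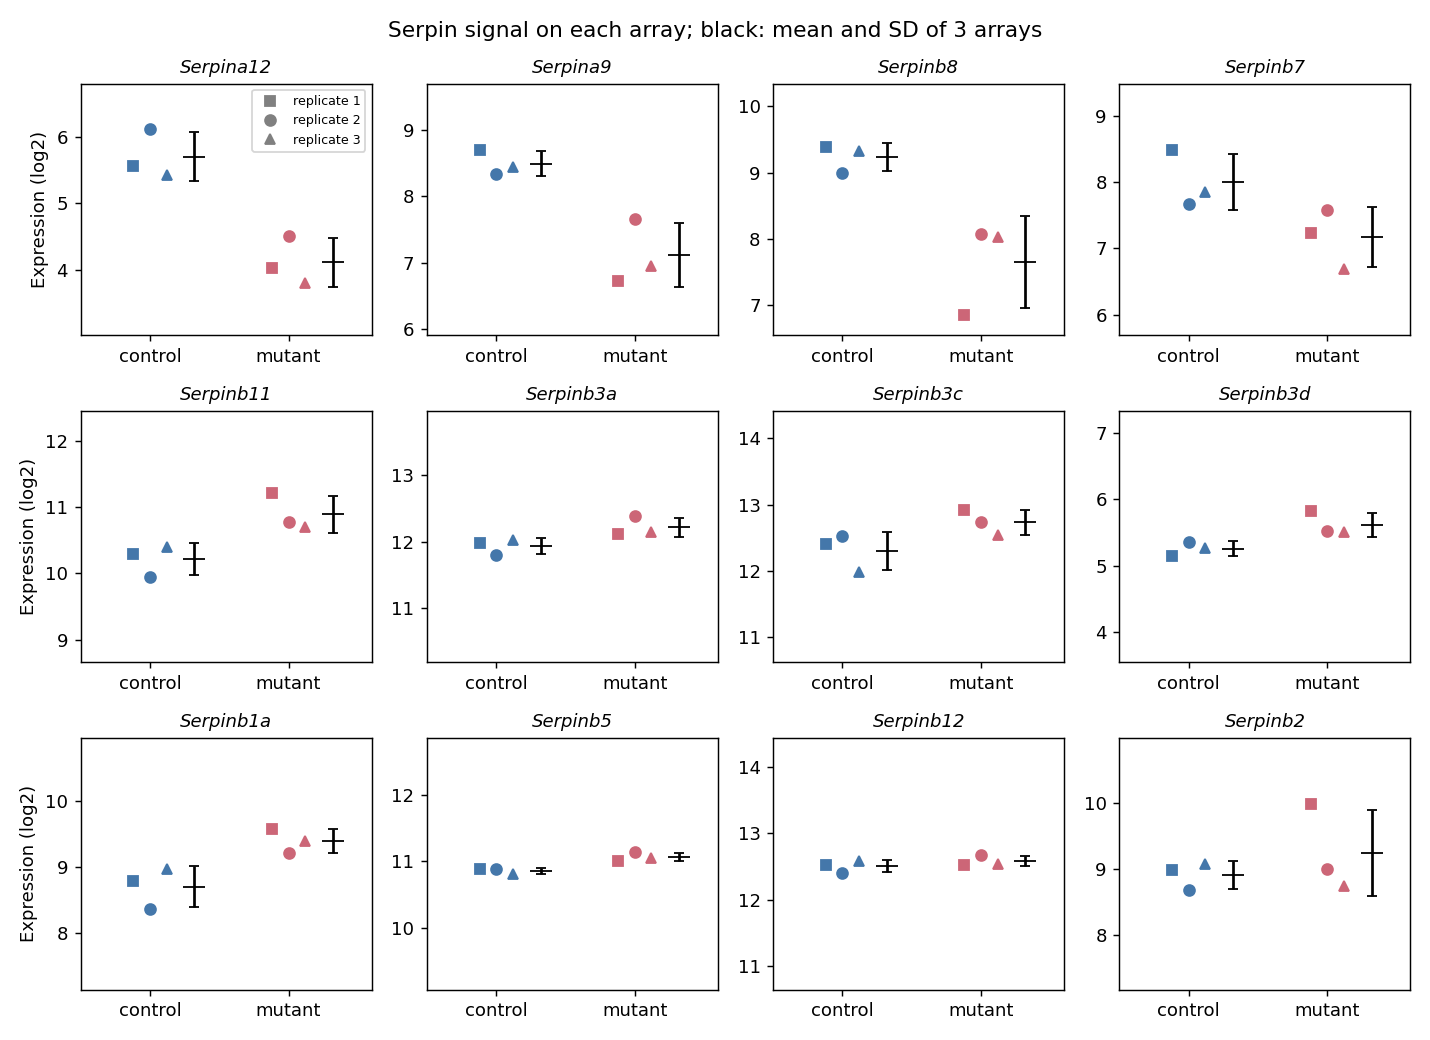
Log2 signal (y axis) of 12 serpins on each array labelled control (blue) or mutant (red), with the marker shape giving the replicate number and black bars the mean and SD of 3 arrays; every panel spans the same range of log2 units. *Serpina12*, *Serpina9* and *Serpinb8* are lower on all 3 mutant arrays, and *Serpinb11* and *Serpinb1a* are higher on all 3.

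*Serpina12*, which encodes vaspin, a secreted inhibitor known to act on kallikrein 7, fell 3.03-fold. It read 5.56, 6.13 and 5.43 in controls 1 to 3 and 4.02, 4.51 and 3.79 in mutants 1 to 3. Every mutant value lay under every control value, and the difference was -1.60 ± 0.23 (log2, SE; limma adjusted p = 0.0272). With a mutant mean of 4.11, below the dim limit, the fold has no firm size. *Serpina12* kept its call with median centring but lost it without control 2 (adjusted p = 0.0522), without control 3 or mutant 3 (0.0855 each), without mutant 1 (0.104) and in the 4 females alone (0.128). Its difference stayed between -1.80 and -1.39 in all 15 alternatives.

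*Serpina9* encodes centerin, a secreted serpin known from germinal centre B cells. It read 8.70, 8.33 and 8.44 in controls 1 to 3 and 6.72, 7.66 and 6.95 in mutants 1 to 3. The groups did not overlap, and it fell 2.61-fold, a difference of -1.38 ± 0.24 (adjusted p = 0.0462). *Serpina9* passed in 6 of 15 alternatives, with differences between -1.66 and -1.08. It passed without mutant 2 (adjusted p = 0.0209) but not without control 1, 2 or 3 (0.0947, 0.0874 and 0.175), without mutant 1 or 3 (0.12 and 0.136), or with each array centred on its median (0.0608). Of 8 measured B cell markers, a list added after these values were seen, 7 lay under the dim limit, none passed (0 at an unadjusted p under 0.05), and their mean per array lay between 4.12 and 4.19 on control and between 4.04 and 4.15 on mutant arrays. Vaspin was also described in adipocytes. Of 7 adipocyte markers *Fabp4*, *Lpl*, *Plin1* and *Cidec* lay at or above the dim limit and *Adipoq*, *Lep* and *Retn* under it, and their mean per array lay between 4.09 and 4.75 in controls and between 4.60 and 4.88 in mutants. None passed, and the 1 with an unadjusted p under 0.05 was *Fabp4*, at 2.40 ± 0.45 (adjusted p = 0.063). Their part in the *Serpina12* values was not tested.

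The remaining clade a genes on chromosome 12 gave little signal. The 14 measured of 28 annotated there comprised these 2 and 12 that all lay under the dim limit. Among the 12 were the hormone carrier *Serpina6*, the alpha-1-antitrypsin genes *Serpina1c* and *Serpina1d*, and the pseudogene *Serpina4-ps1*. Their differences lay between -0.069 (*Serpina11*, the neighbour of *Serpina9* on its other side) and 0.45 (*Serpina3n*). The cluster's median difference was -0.006 and turned to 0.033 with median centring. Both probe sets shared by the *Serpina1* genes also stayed under the dim limit on every array, with differences of -0.080 and 0.005. Of the 3 nearest measured genes on either side of the cluster, *Clmn* passed, the third beyond its *Serpina3n* end (-2.39 ± 0.23, adjusted p = 0.00923), also in all 15 alternatives. The 5 others differed by between -0.11 and 0.076.

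**Figure D2:**
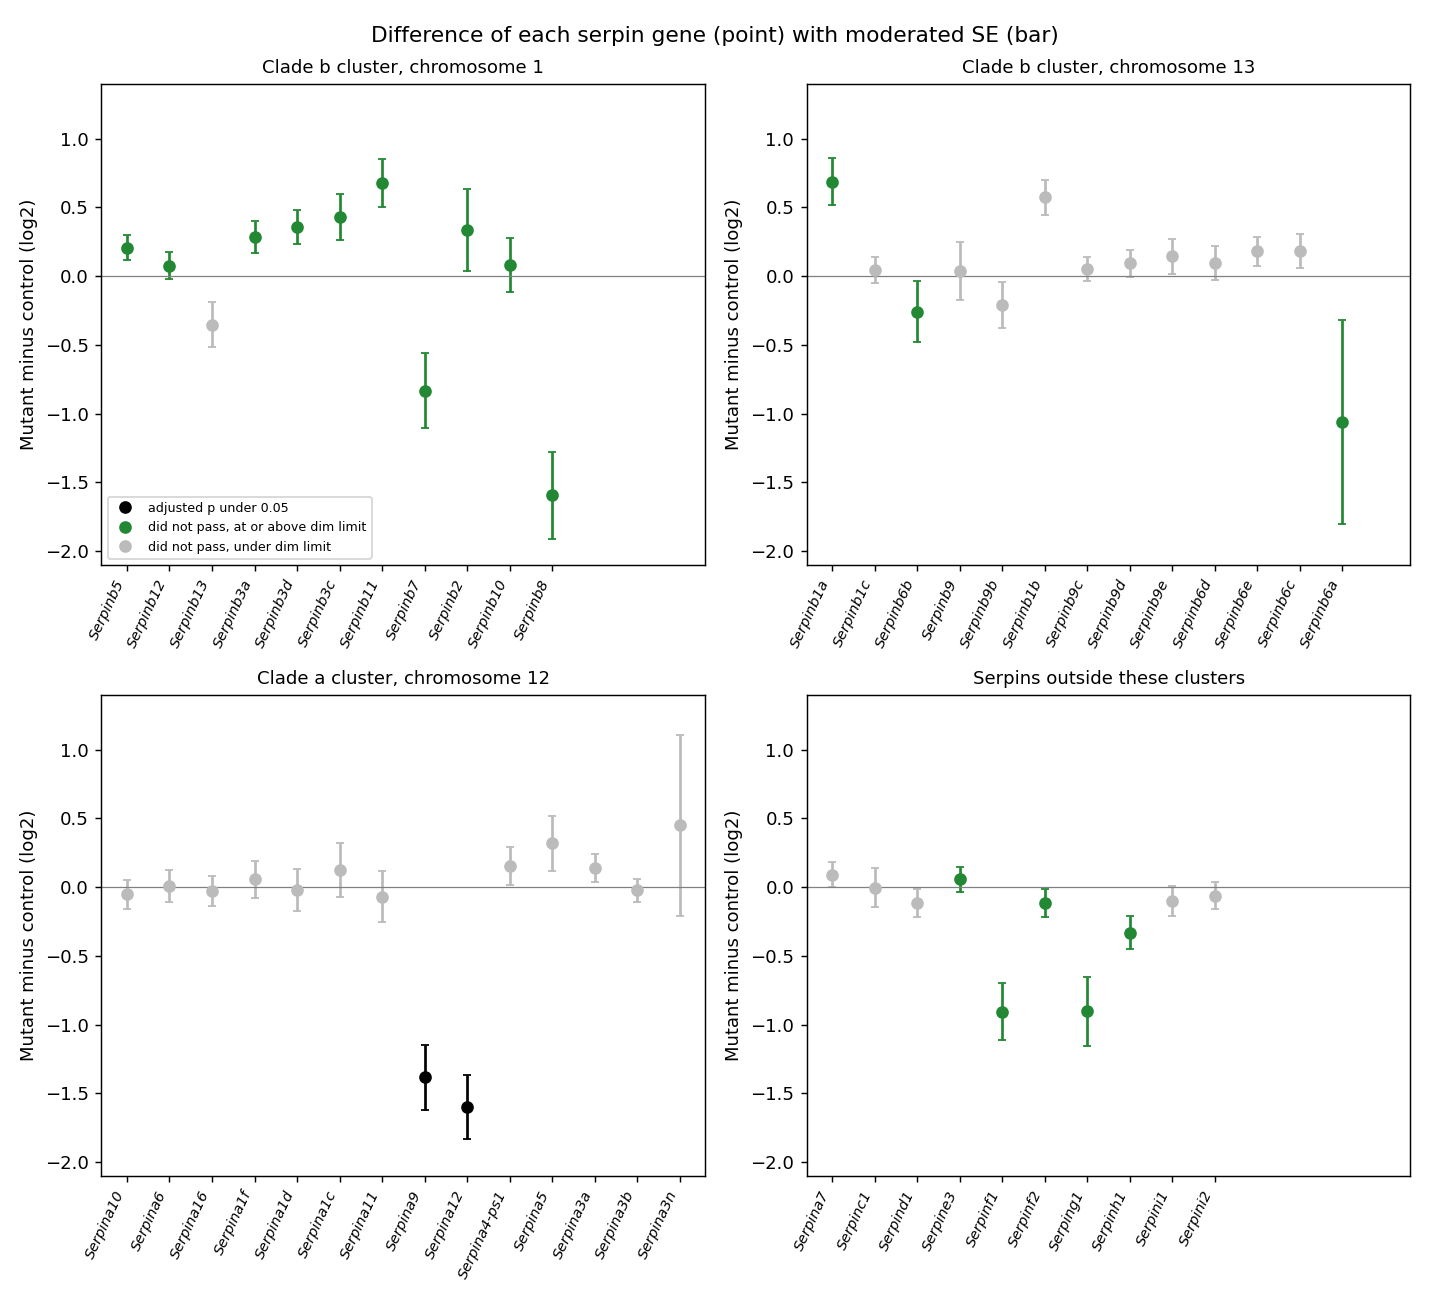
Difference of each of the 48 serpins (mutant minus control, log2, y axis; bars are the moderated SE), with clustered genes in chromosomal order and the others by name (x axis). Black points passed the adjusted threshold, green points did not pass and lie at or above the dim limit, and grey points lie under it. *Serpina9* and *Serpina12* stand at -1.38 and -1.60 among dim neighbours, and on chromosome 1 the genes from *Serpinb3a* to *Serpinb11* lie above 0 while *Serpinb7* and *Serpinb8* lie at -0.83 and -1.59.

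The start of *Serpina12* is shown because that gene had the largest difference in the family. RefSeq (GRCm38.p6) places its window, 250 bases before to 50 after the annotated start, at chr12:104044394-104044693, minus strand. Capitals mark the match to GGGNGNGG, a GC-rich box of the kind bound by Sp and Kruppel-like factors, searched on both strands.
Serpina12: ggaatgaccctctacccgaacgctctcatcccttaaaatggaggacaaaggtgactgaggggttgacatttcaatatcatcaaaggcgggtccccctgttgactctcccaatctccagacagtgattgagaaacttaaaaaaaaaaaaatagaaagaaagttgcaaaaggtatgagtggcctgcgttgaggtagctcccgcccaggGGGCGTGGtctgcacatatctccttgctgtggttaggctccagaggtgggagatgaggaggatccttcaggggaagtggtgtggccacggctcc
The match begins 44 bases before the start. Of all 32851 windows of this length, 49.5% hold at least 1 such match, and the shorter box CACCC, present in 57.5% of windows, has no match here. The motifs were chosen after these sequences were seen, and a match is a description of letters only. No window for *Serpina9* is in the table used.

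Clade b genes on chromosome 1, which include the main intracellular serpins of squamous epithelium, had differences in both directions, none of them past the threshold. Of 12 annotated, 11 were measured, 8 with a higher and 3 with a lower mean on the arrays labelled mutant, counts that were the same with quantile normalization and median centring. They were 7 and 4 without control 3 and in the females alone, and 6 and 5 without mutant 1. Of all genes 55.5% had a higher mean. Their median difference was 0.21, and 0.10 without mutant 1. None passed in limma. Of the 11, 6 had an unadjusted p under 0.05 (54.5%, against 12.4% of all genes and 17.7% of those at or above the dim limit). In 7 the groups did not overlap (63.6%, against 18.1% of all genes and 22.9% of those at or above the dim limit). Of the 11 genes, 10 lie at or above that limit.

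*Serpinb8*, an intracellular inhibitor known to act on furin and, in humans, needed for keratinocyte adhesion, differed most in this cluster. It read 9.39, 9.001 and 9.33 in controls 1 to 3 and 6.85, 8.07 and 8.02 in mutants 1 to 3. All 3 mutant arrays were lower, mutant 1 lowest, and the difference was -1.59 ± 0.32 (95% interval -2.33 to -0.86; adjusted p = 0.0766). It passed with array weights (-1.66, adjusted p = 0.0353) and without mutant 1 (-1.20, adjusted p = 0.0372), and in none of the 13 other alternatives.

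*Serpinb7*, whose human counterpart is mutated in a palmoplantar keratoderma, was the other bright gene of the cluster with a lower mean. It read 8.49, 7.68 and 7.85 in controls 1 to 3 and 7.23, 7.59 and 6.69 in mutants 1 to 3. The highest mutant value, 7.59, lay just under the lowest control value, 7.68, and the difference was -0.83 ± 0.27 (adjusted p = 0.255). *Serpinb13*, an inhibitor of lysosomal cathepsins, had overlapping groups under the dim limit (-0.36 ± 0.16, adjusted p = 0.446).

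The window at the start of *Serpinb8* (chr1:107589756-107590055, plus strand) is printed for its number of CACCC boxes, the short element of Kruppel-like factors, which stand in capitals.
Serpinb8: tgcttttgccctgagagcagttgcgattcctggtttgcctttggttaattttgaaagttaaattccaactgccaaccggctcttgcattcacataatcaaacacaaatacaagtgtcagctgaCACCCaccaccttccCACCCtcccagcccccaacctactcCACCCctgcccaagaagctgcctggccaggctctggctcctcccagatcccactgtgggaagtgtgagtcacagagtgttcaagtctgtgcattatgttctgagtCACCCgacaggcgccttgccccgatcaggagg
It holds 4 matches to CACCC or its complement, and 3.1% of all windows hold 4 or more. Among the serpins *Serpinb9b*, a dim gene whose groups overlapped, also holds 4. They begin 127, 112 and 87 bases before and 18 bases after the annotated start. The same window has 2 matches to TGANTCA, the AP-1 element. Of all windows 7.81% hold at least 1 and 0.46% hold 2 or more, and the motif was chosen after the sequences were seen. The 41 serpins with a window have 49 windows. Counted per gene, 24 hold CACCC, 17 GGGNGNGG, 9 TGANTCA and 12 the TATA box letters TATAAA. Counted per window, 13.6% of all windows hold TATAAA.

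The *Serpinb3* genes, mouse counterparts of the human squamous cell carcinoma antigens that inhibit cysteine cathepsins and serine proteases, all had higher means on the arrays labelled mutant, a direction kept in all 15 alternatives. *Serpinb3a* read 11.97, 11.80 and 12.02 in controls 1 to 3 and 12.12, 12.38 and 12.15 in mutants 1 to 3. *Serpinb3c* read 12.41, 12.52 and 11.98 in controls 1 to 3 and 12.92, 12.73 and 12.54 in mutants 1 to 3. *Serpinb3d* read 5.14, 5.36 and 5.27 in controls 1 to 3 and 5.83, 5.52 and 5.50 in mutants 1 to 3. In each of the 3 the lowest mutant value lay above the highest control value; for *Serpinb3c* mutant 3, at 12.54, and control 2, at 12.52, nearly touched. The differences were 0.29 ± 0.11, 0.43 ± 0.17 and 0.36 ± 0.12, and none passed (adjusted p = 0.363, 0.349 and 0.279).

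*Serpinb3a* and *Serpinb3c* are closely related paralogs, so signal may be shared between their probe sets and single values are uncertain. Probe and transcript sequences were not compared. The windows of *Serpinb3a* (chr1:107052254-107052553, minus strand) and *Serpinb3c* (chr1:107278322-107278621, minus strand), printed to compare the starts of these genes, carry TATAAA in capitals. Most of each window lies before the start, so it does not show whether probe signal is shared.
Serpinb3a: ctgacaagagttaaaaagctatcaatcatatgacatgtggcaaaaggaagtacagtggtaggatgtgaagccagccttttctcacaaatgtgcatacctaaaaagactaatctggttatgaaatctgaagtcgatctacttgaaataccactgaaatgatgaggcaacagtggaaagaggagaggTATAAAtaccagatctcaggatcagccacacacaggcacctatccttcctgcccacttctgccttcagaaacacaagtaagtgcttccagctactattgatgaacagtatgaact
Serpinb3c: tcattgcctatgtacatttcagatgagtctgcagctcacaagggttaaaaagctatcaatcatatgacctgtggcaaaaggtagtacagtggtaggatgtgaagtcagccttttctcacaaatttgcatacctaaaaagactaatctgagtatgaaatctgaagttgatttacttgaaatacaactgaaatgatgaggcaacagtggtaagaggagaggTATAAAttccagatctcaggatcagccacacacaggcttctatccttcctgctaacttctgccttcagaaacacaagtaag
Shifted by 34 bases, they match at 249 of 266 bases (93.6%). The window of *Serpinb3d* matched those of *Serpinb3a* and *Serpinb3c* at 33.2% and 34.3% of bases at its best shift (62 and 46 bases). All these matches allow no gaps, and what unrelated windows reach in this way was not tested. The TATAAA letters begin 65 bases before the annotated start of *Serpinb3a* and 31 before that of *Serpinb3c*.

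*Serpinb11*, a clade b gene next to *Serpinb3c*, had the largest positive difference on chromosome 1. It read 10.30, 9.94 and 10.40 in controls 1 to 3 and 11.21, 10.78 and 10.70 in mutants 1 to 3. The groups did not overlap, and the difference was 0.68 ± 0.18 (95% interval 0.27 to 1.09; adjusted p = 0.15). It lay between 0.52 and 0.78 in the 15 alternatives, with adjusted p-values from 0.123 to 0.313.

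*Serpinb5*, encoding maspin, a serpin that does not inhibit proteases and marks basal and suprabasal keratinocytes, was tight between animals. It read 10.89, 10.89 and 10.81 in controls 1 to 3 and 11.01, 11.14 and 11.06 in mutants 1 to 3. The groups stood apart by a small step of 0.21 ± 0.09 (adjusted p = 0.409). *Serpinb12*, an inhibitor of trypsin-like proteases, read 12.52, 12.41 and 12.59 in controls 1 to 3 and 12.53, 12.67 and 12.54 in mutants 1 to 3. Its groups overlapped and the difference of 0.08 ± 0.10 had an interval from -0.15 to 0.30.

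*Serpinb2* encodes plasminogen activator inhibitor 2, which blocks urokinase and is induced by stress. It read 8.99, 8.68 and 9.07 in controls 1 to 3 and 9.98, 9.002 and 8.75 in mutants 1 to 3. Mutant 1 was the highest array and the other 5 lay between 8.68 and 9.07, so the difference of 0.33 ± 0.30 (adjusted p = 0.733) became -0.035 without mutant 1 and 0.003 in the females alone. *Serpinb10*, whose product is known from the nucleus of myeloid cells, had overlapping groups and differed by 0.08 ± 0.20 (adjusted p = 0.922), with a negative value without mutant 1, without control 3 and in the females alone. Of the 3 nearest measured genes on each side of this cluster none passed, at differences from -0.58 (*Bcl2*) to 0.074, and 1 of the 6 had an unadjusted p under 0.05.

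The clade b genes on chromosome 13 were mostly dim, with 3 of 13 measured genes at or above the limit. None of the 13 passed and 2 had an unadjusted p under 0.05 (15.4%, against 12.4% of all genes). Of the 13, 10 had a higher and 3 a lower mean, where 55.5% of all genes were higher. Brightest in the *Serpinb1* group was *Serpinb1a*, which inhibits neutrophil elastase and related granule proteases. It read 8.79, 8.36 and 8.96 in controls 1 to 3 and 9.57, 9.21 and 9.40 in mutants 1 to 3. All mutant values were higher, by 0.69 ± 0.17 (95% interval 0.29 to 1.09; adjusted p = 0.138). Its relative *Serpinb1b*, chosen after its values were seen, read 4.39, 4.10 and 4.03 in controls 1 to 3 and 4.72, 4.87 and 4.65 in mutants 1 to 3. It also did not overlap and differed by 0.57 ± 0.13 (adjusted p = 0.101), with a control mean under the dim limit. The third member, *Serpinb1c*, differed by 0.04 ± 0.10. Neutrophils also contain the *Serpinb1a* product, and of 11 neutrophil markers 10 had a higher mean in mutants, none past the threshold (3 at an unadjusted p under 0.05). Their mean per array lay between 4.20 and 4.34 in controls and between 4.43 and 5.35 in mutants. The 5.35 was on mutant 1, where *S100a8* and *S100a9* read 10.01 and 9.95. Of the 11 markers 8 were under the dim limit, and their part in the *Serpinb1a* values was not tested.

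The *Serpinb9* genes, relatives of the granzyme B inhibitor, were all under the dim limit, with differences between -0.21 and 0.14, *Serpinb9* itself at 0.04 ± 0.21. The 3 probe sets shared by several *Serpinb9* genes read at most 3.09 on any array and differed by 0.055 to 0.076. Of the 3 nearest measured genes on each side of the chromosome 13 cluster, 1 passed, *Tubb2a* (0.80 ± 0.13, adjusted p = 0.037), which lost its call when any 1 array was left out (adjusted p up to 0.127).

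*Serpinb6a*, an intracellular inhibitor of granule proteases such as cathepsin G, varied more between animals of 1 genotype than all but 0.512% of genes. It read 8.18, 10.89 and 10.18 in controls 1 to 3 and 9.57, 8.996 and 7.51 in mutants 1 to 3. The groups overlapped widely, and the difference was -1.06 ± 0.74 (adjusted p = 0.656). It became -1.85 without control 1, -0.49 without control 2, -0.47 without mutant 3 and -2.28 in the 4 females, while the male pair gave 1.39. The arrays that were high in *Serpinb6a* were those high in skeletal muscle genes, whose mean of 8 read 6.16, 10.67 and 9.58 on control and 8.96, 8.57 and 6.42 on mutant arrays. Within each genotype both had the same order, with controls 1, 3 and 2 and mutants 3, 2 and 1 rising in that order, which was noticed after the values were seen. Esophageal muscle in the mouse lies beneath the epithelium, and its part in the *Serpinb6a* values was not tested.

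Serpins outside the clusters had a median difference of -0.11, 8 lower and 2 higher (7 and 3 with median centring and in several other alternatives). Of all genes 55.5% were higher. Of these 10 serpins, none passed in limma and 3 had an unadjusted p under 0.05. That is 30%, against 12.4% of all genes and 17.7% of those at or above the dim limit, where these 3 lie. These are the 3 that are known products of stromal cells. *Serpinf1* encodes pigment epithelium-derived factor, a secreted serpin that inhibits vessel growth and no protease. It read 7.08, 7.35 and 7.76 in controls 1 to 3 and 6.36, 6.84 and 6.28 in mutants 1 to 3, without overlap, a difference of -0.91 ± 0.21 (adjusted p = 0.112).

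*Serping1* encodes the C1 inhibitor, which blocks the first proteases of complement. It read 8.72, 9.31 and 9.34 in controls 1 to 3 and 8.65, 8.24 and 7.77 in mutants 1 to 3. Mutant 1, at 8.65, lay just under control 1, at 8.72, and the difference was -0.90 ± 0.25 (adjusted p = 0.175). *Serpinh1*, the chaperone of collagen folding also called Hsp47, read 6.82, 6.69 and 6.42 in controls 1 to 3 and 6.32, 6.35 and 6.26 in mutants 1 to 3. Its groups did not overlap either, and it differed by -0.33 ± 0.12 (adjusted p = 0.32).

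The mean of the 20 fibroblast markers was lower on the same arrays, at 7.28 to 7.99 on control and 6.68 to 6.88 on mutant. *Col1a2*, *Sparc* and *Thy1* fell by 1.30 ± 0.19, 1.10 ± 0.17 and 0.58 ± 0.10 (adjusted p = 0.0273, 0.0312 and 0.0479), and 19 of the 20 had an unadjusted p under 0.05. With 1 array left out each kept its direction, but only without control 1 did *Col1a2* and *Sparc* stay past the threshold, and *Thy1* never did (adjusted p up to 0.118, 0.134 and 0.212). In controls 1 to 3 the fibroblast mean rose (7.28, 7.87 and 7.99), as did *Serpinf1* and *Serping1*, while *Serpinh1* fell. Among mutants the fibroblast mean was lowest on mutant 1 (6.68), where *Serping1* was highest (8.65). The mean of 8 smooth muscle genes lay between 7.94 and 8.56 on control and between 7.11 and 7.80 on mutant arrays. The part of these markers in the values of *Serpinf1*, *Serping1* and *Serpinh1* was not tested. The other 7 serpins outside clusters, namely antithrombin (*Serpinc1*), heparin cofactor (*Serpind1*), *Serpine3*, antiplasmin (*Serpinf2*), neuroserpin (*Serpini1*), *Serpini2* and the thyroxine carrier *Serpina7*, differed by between -0.12 and 0.091 with overlapping groups.

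**Figure D3:**
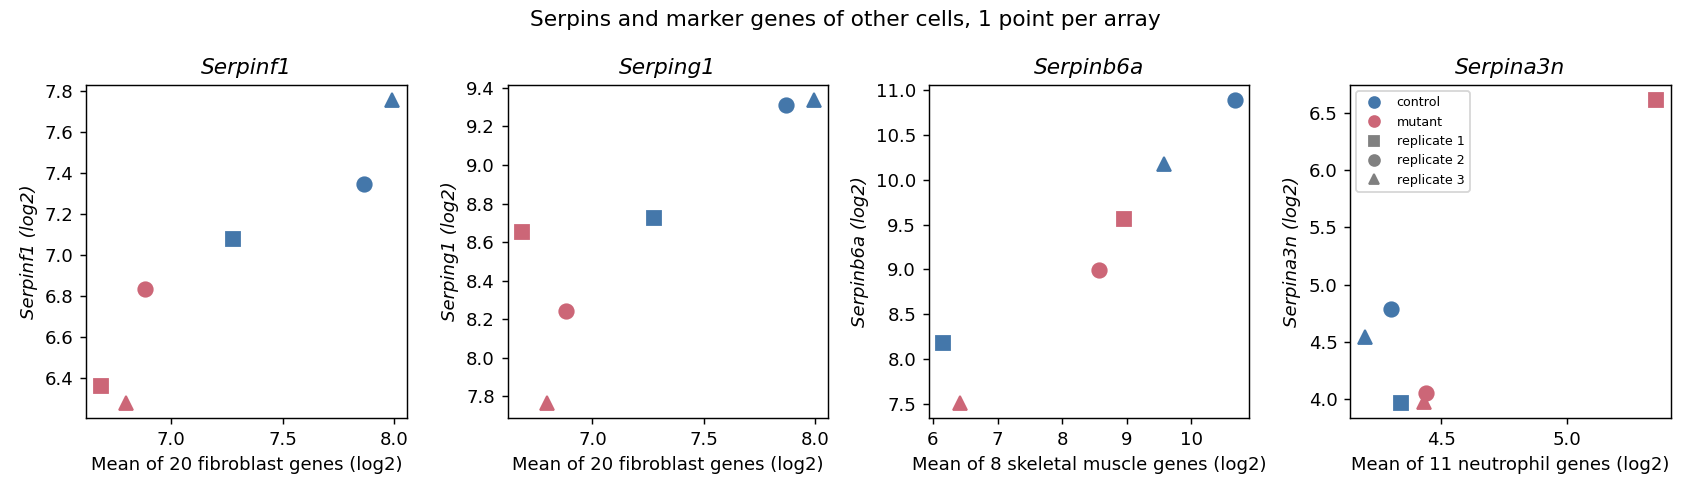
Each panel plots the log2 signal of a serpin (y axis) against the mean log2 signal of marker genes of another cell type (x axis), 1 point per array, with control arrays in blue, mutant arrays in red and the shape giving the replicate. *Serpinf1* and *Serping1* are shown with 20 fibroblast genes, *Serpinb6a* with 8 skeletal muscle genes and *Serpina3n* with 11 neutrophil genes, where mutant 1 stands alone at 6.61.

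*Serpina3n*, the mouse antichymotrypsin induced in acute inflammation, was chosen after its values were seen. It was flagged in a fit with a genotype by sex term, and 1 animal stood apart. It read 3.97, 4.79 and 4.54 in controls 1 to 3 and 6.61, 4.06 and 3.98 in mutants 1 to 3. Mutant 1, the male, stood highest, and the other 5 lay between 3.97 and 4.79. The difference between genotypes was 0.45 ± 0.66 (adjusted p = 0.85). In a fit with a genotype by sex term, the adjusted p of that term was 0.0313 for *Serpina3n*, and it was under 0.05 for 0.0451% of all genes and for no other serpin. Each male arm is 1 array and the females alone give the spread. The term therefore rests on the single values of mutant 1 and control 1 and is no evidence on sex. The mean of 11 neutrophil markers was also highest on mutant 1, at 5.35 against 4.20 to 4.44 on the other 5 arrays. Much of that height came from *S100a8* and *S100a9*, named after their values were seen, at 10.01 and 9.95 on mutant 1. Elsewhere they read at most 6.085 and 6.941. *Ltf*, *Cxcr2*, *Csf3r*, *Mpo* and *Retnlg* were also highest on mutant 1, by less, while *Ly6g*, *Elane*, *Camp* and *Ngp* were not. The part of these markers in the *Serpina3n* value was not tested.

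**Figure D4:**
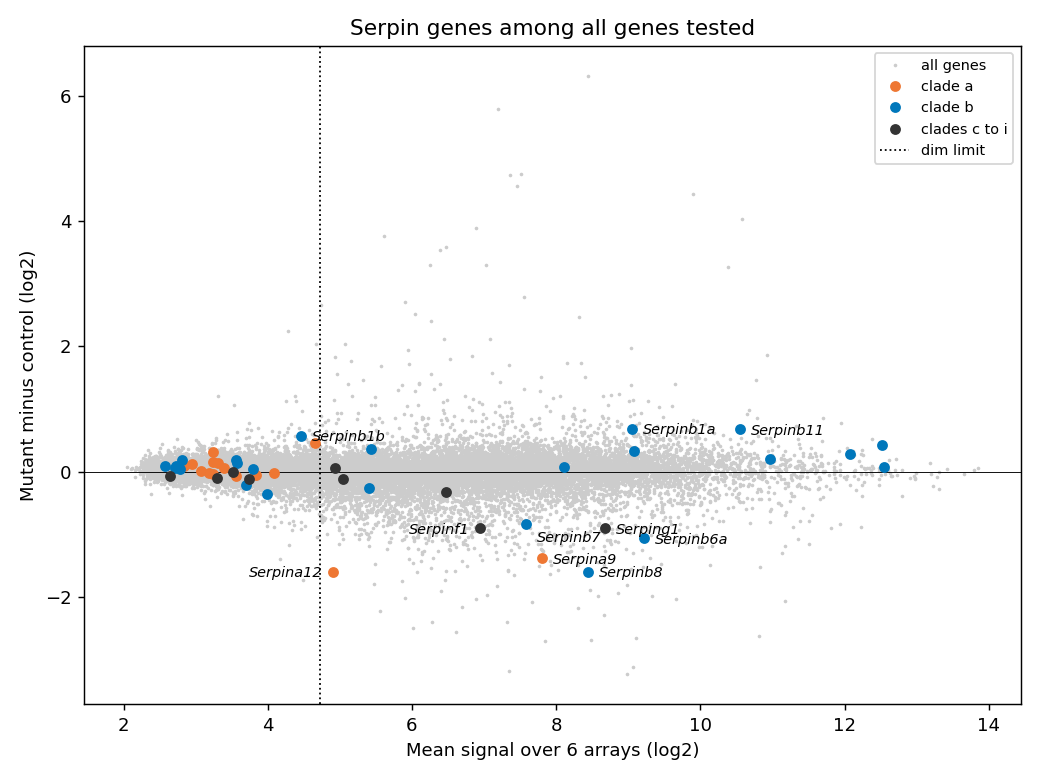
Difference between genotypes (mutant minus control, log2, y axis) against mean signal over 6 arrays (log2, x axis) for all 19938 genes (grey) and the serpins by clade (colours), with the dim limit of 4.72 as a dotted line. Of the serpins, 28 lie left of that line with differences from -0.36 to 0.57, and 20 lie right of it with differences from -1.60 to 0.69.

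Proteases, some of them serpin targets, and inhibitors of other families were taken as 7 lists by function. For comparison, 1.04% of all genes and 1.69% of those at or above the dim limit passed the threshold. Of 13 kallikreins, a group that includes serine proteases of epithelial shedding, 1 fell and none rose: *Klk5*, from 7.26 ± 0.28 to 4.77 ± 0.87 (-2.50 ± 0.39, adjusted p = 0.0353). It kept that call without mutant 2 and lost it without any other array (adjusted p up to 0.122). *Klk7*, named after its values were seen because it is the known target of vaspin, went from 10.58 ± 0.11 to 9.39 ± 0.73 (-1.19 ± 0.32, adjusted p = 0.161), with the mutant arrays all lower. The median of the kallikreins was 0.10, 9 had a higher mean, and 7 had an unadjusted p under 0.05. Of all genes 12.4% had such a p, and 17.7% of those at or above the dim limit, where 12 of the 13 lie. Of 15 lysosomal proteases, not all of them serpin targets, 1 rose and none fell. *Ctsc*, encoding cathepsin C, rose by 1.14 ± 0.14 (adjusted p = 0.0162). Its call was lost without control 3, mutant 1 or mutant 2 (0.0889, 0.0615 and 0.0608). The median of the list was -0.023, with 2 at an unadjusted p under 0.05.

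Of 39 inhibitors that are not serpins, 1 fell and none rose, where 1.04% of all genes passed. Of the 39, 7 had an unadjusted p under 0.05, which 12.4% of all genes had. The gene that passed was *Timp2*, an inhibitor of matrix metalloproteinases, which fell by 1.09 ± 0.14 (adjusted p = 0.0169). Its call was kept without control 1 and lost without any other array (adjusted p up to 0.0849). In the 4 other lists none passed in limma. Their counts at an unadjusted p under 0.05 stand beside 12.4% of all genes and 17.7% of those at or above the dim limit. The 14 genes of plasminogen activation had 3 at an unadjusted p under 0.05, and the one nearest to passing was *Plat*, tissue plasminogen activator (1.84 ± 0.41, adjusted p = 0.101). The 17 membrane and other epithelial serine proteases had 4, led by *Tmprss11b* (1.98 ± 0.39, adjusted p = 0.0785). The 14 granule serine proteases had 1, the mast cell protease gene *Mcpt4* (-0.93 ± 0.18, adjusted p = 0.0717), and 13 of the 14 lay under the dim limit. The 18 complement and coagulation proteases also had 1, *C1s1*, which encodes a protease that the C1 inhibitor blocks (-0.81 ± 0.28, adjusted p = 0.278).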

How the data were processed

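Per the labels' protocols, total RNA was column-purified and 100 ng amplified from poly(T)-primed cDNA with biotin. Values for 28853 probe sets were deposited by the authors as log2 signal; the scale was read from the values (array medians 5.01 to 5.13). Partek 6.4 is named in the submitters' processing notes. Background correction and normalization, which affect dim genes most, are not stated in these sources. Of the probe sets, 21789 named 1 gene through the platform annotation, with symbols updated to GRCm38.p6; the brightest per gene gave 19938 genes.

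Groups of 3 were compared with limma 3.58.1 in R 4.3.3 (two-sided, genotype only, 7.58 degrees of freedom after moderation), Benjamini-Hochberg adjusted over all genes at 0.05, with no filter; the smallest exact permutation p with 3 arrays a side is 0.1. Intervals are 95%, and the number of arrays, not depth, limits precision. The fit was tested on simulated data.

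Named serpins are those past the threshold, the 8 largest differences each way at or above the dim limit, and a fixed set from squamous epithelium, stroma and plasminogen activation; from each list, up to 4 passing genes or the 1 with the smallest p. Genes beside clusters are named by position. The 15 alternatives changed scaling, filter, probe choice, weights, variance trend, sex or block terms, or left out males or 1 array. Members and lists were chosen with earlier results of these data known. Lists for T and NK cells, endothelium, hepatocytes and glands held no passing gene (0, 2, 0 and 0 at an unadjusted p under 0.05), nor did mast cell and muscle lists (2 and 7) or neutrophils (3); of 14 macrophage genes *Cd68* was higher (1.11 ± 0.17) and *Lyz2* lower (-1.57 ± 0.27), both past the threshold. Of all genes 12.4% had an unadjusted p under 0.05, and of those at or above the dim limit 17.7%. Python 3.11.15 and matplotlib 3.10.9 drew the plots.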

Additional observations from a re-analysis of the deposited data

Results flagged for a closer look

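*Serpina3n* was flagged because its genotype difference differed between the sexes in a fit with a genotype by sex term. Mutant 1, a male, was the only array above 4.79. The mutant minus control difference was 2.645 in the male pair and -0.647 in the females. In a limma fit with a genotype by sex term, the male difference exceeded the female one by 3.29 on the log2 scale. With 1 male per genotype and the spread taken from the females alone, that value rests on mutant 1 and control 1. It can neither show nor exclude a dependence on sex.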

How the results depend on the processing

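The count of serpins past the threshold was 2. It was 1 with median centring and with sex as a covariate (*Serpina12* in both), 3 with array weights, and 0 in the females alone, where 10 serpins had an unadjusted p under 0.05 in limma. With each array left out in turn it ranged from 0 to 2, and the 3 fits with none had 11 or 12 at an unadjusted p under 0.05. Quantile normalization, the dim filter, the mean of probe sets and an intensity trend kept *Serpina12* and *Serpina9*. The replicate numbers share no stated litter, and deviations of same-numbered arrays correlated at -0.17, 0.090 and -0.10; with the replicate number as a block the count was 1. The median difference of all serpins, 0.049, became 0.013 with quantile normalization, 0.089 with median centring, -0.030 with the dim filter, 0.007 in females, 0.037 with array weights, and 0.008 to 0.070 with an array left out. That of the chromosome 13 cluster, 0.092, became 0.051, 0.132, -0.26, 0.033 and 0.062 under the same settings. The dim filter left only 2 genes of the chromosome 12 cluster, *Serpina12* and *Serpina9*, so its -1.49 describes these called genes and not the cluster. It left 3 genes of the chromosome 13 cluster and 5 outside clusters, the latter at -0.33. Leaving out arrays gave 0.10 to 0.22 on chromosome 1, where only mutant 1 moved it beyond the spread, and -0.15 to -0.068 outside clusters. Signs turned in uncalled genes near 0: *Serpinb10* (-0.004 in females, -0.12 to 0.25 with an array left out), *Serpinb2* (-0.035 to 0.58) and *Serpinb9* (-0.034 in females, -0.14 to 0.24). No other serpin named by the rule turned in sign. The cause was not tested. Probe sets under the dim limit, 28 of 48, leave small changes undetectable, and small changes in brighter genes can also be missed with 3 arrays a side.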
